A study of Mus musculus with 9 samples.

Results

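The 43 genes described here encode the podosome, actin and tubulin cytoskeleton of the osteoclast, and they were taken from the deposited table by a list of symbols. All 43 were found among the 54532 gene IDs of the table, and all 43 had enough reads to be among the 14264 genes tested. They fall into 7 role groups: 7 kinases and scaffolds of the adhesion signal, 6 links from integrins to actin, 10 genes of the Arp2/3 complex and its activators, 3 of filament turnover, 3 of bundling and motors, 7 small GTPases and exchange factors, and 7 tubulins.

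The study sequenced total RNA from osteoclasts grown in vitro from mouse bone marrow with RANKL at 10 ng/ml next to M-CSF at 20 ng/ml, and collected on day 3. KO_4OI libraries came from cells labelled Acod1 KO that received 4-octyl-itaconate (4-OI), an itaconate ester that enters cells, at 50 µM on day 1. KO_CTR libraries came from cells with the same genotype label and no stimulation, and WT_CTR libraries from unstimulated cells labelled wild-type, with 3 libraries in each group. Acod1 encodes the enzyme that makes itaconate, 4-OI was given only to cells labelled Acod1 KO, and KO_4OI against WT_CTR therefore joins genotype label and treatment. The sources used here name no allele, strain, age or sex of the mice. Nor do they say whether replicates were separate animals, and the p-values then measure only how far these 9 libraries scatter, which may be technical in part.

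Podosomes are dot-like adhesions with a core of branched actin and a surrounding ring of integrins, talin, vinculin and paxillin. In osteoclasts they gather into a belt, and on bone into the sealing zone, a ring of packed actin that encloses the resorption pit. Src and its partners control podosome turnover, small GTPases control actin assembly, and microtubules help to position the podosome belt at the cell edge.

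Each library held between 24830149 (KO_CTR replicate 2) and 35143629 (WT_CTR replicate 3) counted reads. Acod1 itself had 4.95, 6.27 and 4.95 CPM (reads of a gene relative to the TMM-scaled library size) in KO_4OI, against 1.98, 3.60 and 1.70 CPM in KO_CTR and 0.926, 0.889 and 1.57 CPM in WT_CTR. Reads over the gene were thus not lower in the libraries labelled KO, the deleted part of the gene is not given in the sources used here, and directions between KO_CTR and WT_CTR rest on the labels. Osteoclast markers were present in every library. Their summed level ran from 9247 to 11744 CPM in KO_4OI, against 28337 to 35054 CPM in KO_CTR and 25168 to 26542 CPM in WT_CTR, and 12 of 12 fell in KO_4OI against KO_CTR. Within groups, the deviation of a library from the mean of its group's other libraries went with the GC content of transcripts. The correlation across 14253 genes, which are not independent replicates, was 0.62 in KO_CTR replicate 2, 0.50 in KO_4OI replicate 3 and 0.47 in WT_CTR replicate 3. It was -0.55 in KO_CTR replicate 3, -0.46 in KO_4OI replicate 2 and between -0.31 and -0.07 in the remaining libraries. Values within a group depend on each other, so they do not single out 1 deviating library. Xist reads were seen in WT_CTR replicate 2 (10715) and KO_4OI replicate 3 (8764) and were 0 in the other 7 libraries.

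The largest differences among the 43 genes separated KO_4OI from both untreated groups. In KO_4OI against KO_CTR 12 genes fell, among them the kinase gene Src, its scaffold substrates Bcar1, Pxn and Sh3pxd2a, the filopodial genes Fscn1 and Myo10, the GTPase gene Rac2 and the Rac exchange factor gene Dock5. In the same comparison 7 rose, of which 4 were tubulins. The 19 calls are 44.2% of the 43 genes, beside 27.3% of all genes tested (edgeR quasi-likelihood test, Benjamini-Hochberg over all genes, threshold 0.05). DESeq2 also called 19, beside 30.4% of all genes, and 25 had an unadjusted edgeR p under 0.05, beside 38.2%. By direction, 12 lower stand beside a background of 14.2% and 7 higher beside 13%. The median log2 fold change was 0.0044 over the 43 genes and 0.019 over all genes. The CPM ranges of KO_4OI and KO_CTR did not overlap for 23 of the 43, beside 39.3% of all genes tested. In bulk RNA, fewer cells of a type and less RNA per cell cannot be told apart, and the osteoclast markers above fell in the same libraries. The part of the cell mixture in these differences was not tested.

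**Figure D1:**
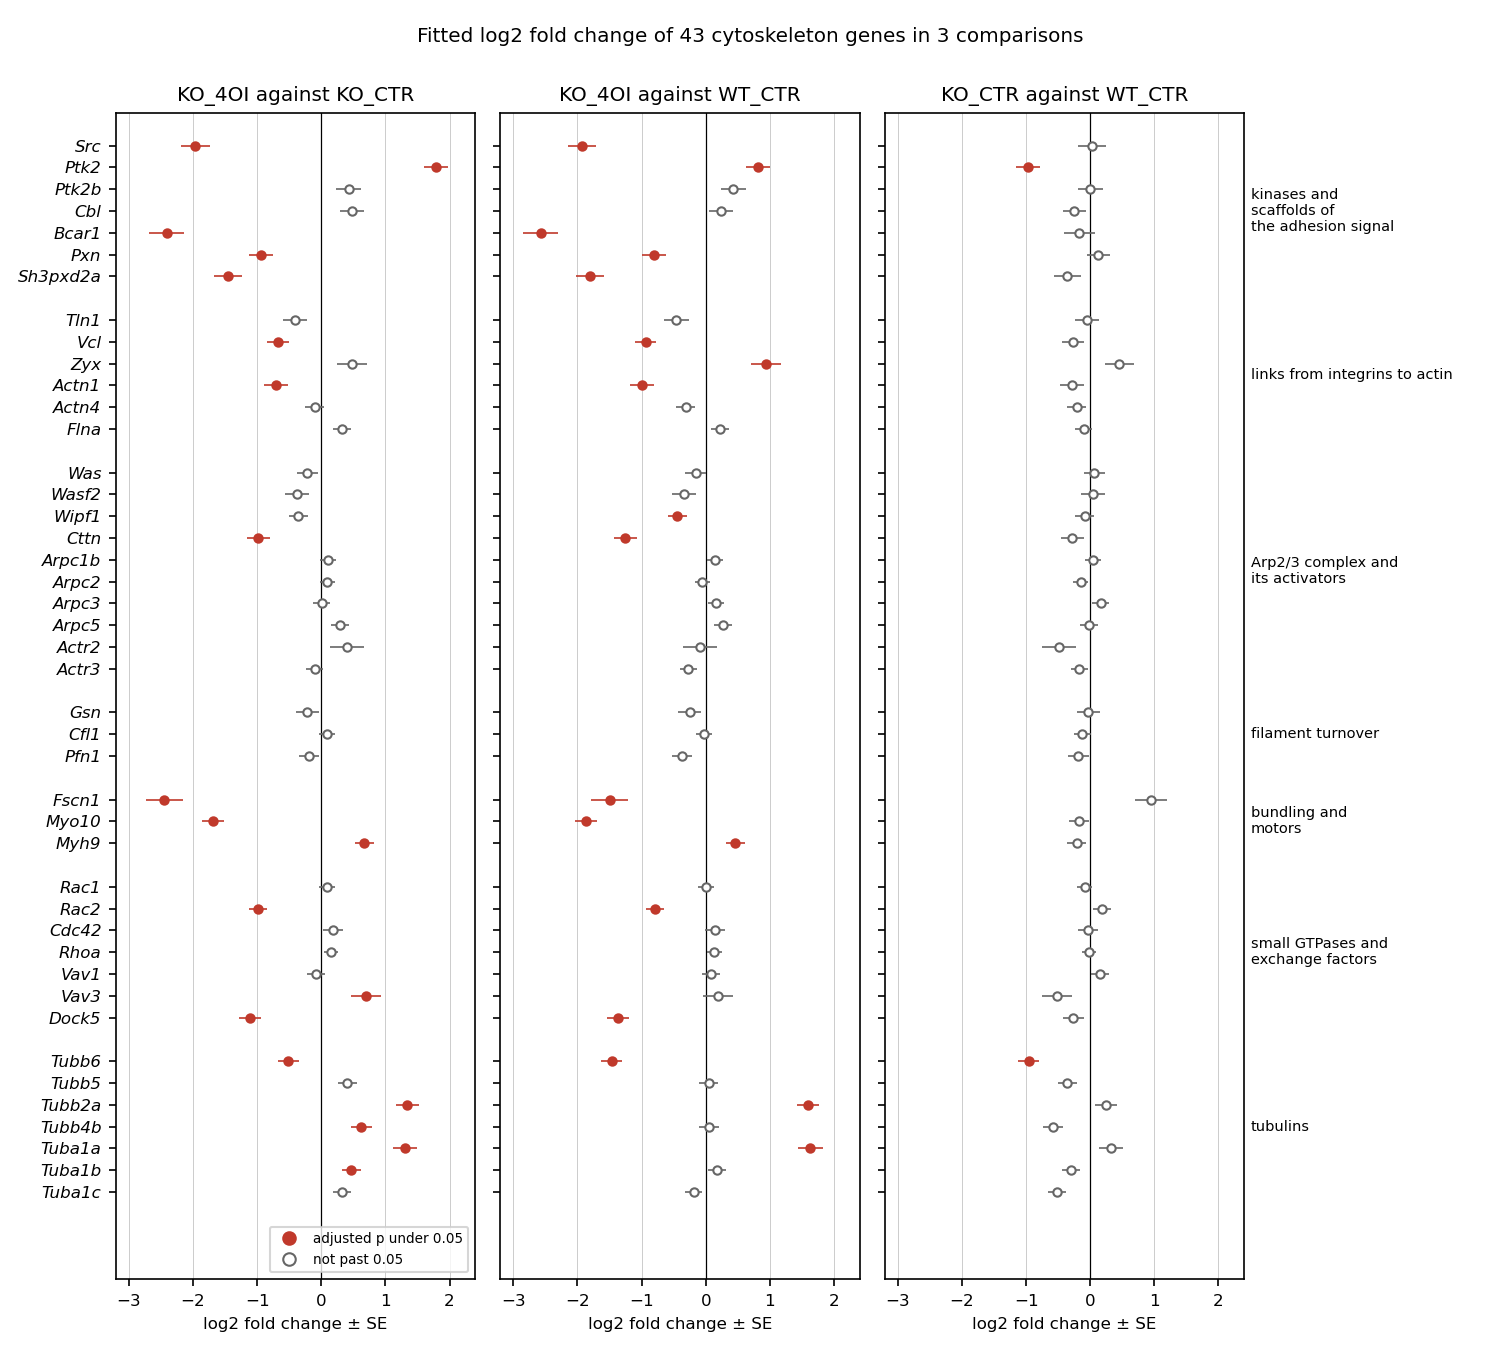
Fitted log2 fold change ± SE (x axis) of the 43 genes (rows, by role group) for KO_4OI against KO_CTR, KO_4OI against WT_CTR and KO_CTR against WT_CTR, with 3 libraries a group and filled points for an adjusted p under 0.05. Filled points number 19, 18 and 2 in the 3 panels, and the Arp2/3 subunits and filament turnover genes hold none in any panel.

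The promoters of 4 genes are printed because these are the 2 largest rises and the 2 largest falls among called members with a single entry in RefSeq's promoter table (GRCm38.p6, the build called mm10). The table matched 34 of the 43 genes. Each sequence is the 250 bases before the transcription start of that entry, 5′ to 3′ on the gene's strand, with capitals for any motif found. By the GENCODE vM21 gene coordinates, the Src stretch lies inside its gene, which starts at chr2:157418444. The Tuba1a stretch lies partly inside its gene, which reaches chr15:98953703, and the Fscn1 stretch ends just inside its gene, which starts at chr5:142960343. These genes thus have other annotated starts further upstream. Tubb2a lies at chr13:34078009-34078258, minus strand, Tuba1a at chr15:98953502-98953751, minus strand, Fscn1 at chr5:142960105-142960354, plus strand, and Src at chr2:157424043-157424292, plus strand.
Tubb2a: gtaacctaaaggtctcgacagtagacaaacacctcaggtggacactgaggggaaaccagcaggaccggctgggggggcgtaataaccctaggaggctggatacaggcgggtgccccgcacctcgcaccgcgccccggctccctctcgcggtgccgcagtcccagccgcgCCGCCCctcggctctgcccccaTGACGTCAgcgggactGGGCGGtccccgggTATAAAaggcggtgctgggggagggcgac
Tuba1a: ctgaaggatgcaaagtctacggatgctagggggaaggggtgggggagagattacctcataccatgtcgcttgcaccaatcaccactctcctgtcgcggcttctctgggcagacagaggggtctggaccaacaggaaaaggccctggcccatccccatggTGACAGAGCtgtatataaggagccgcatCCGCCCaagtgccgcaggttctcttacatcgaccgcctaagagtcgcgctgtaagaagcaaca
Fscn1: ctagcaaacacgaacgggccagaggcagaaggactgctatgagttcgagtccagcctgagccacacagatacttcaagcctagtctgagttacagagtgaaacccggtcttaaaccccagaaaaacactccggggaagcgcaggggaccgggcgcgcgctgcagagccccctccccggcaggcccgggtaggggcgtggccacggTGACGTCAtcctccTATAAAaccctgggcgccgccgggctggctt
Src: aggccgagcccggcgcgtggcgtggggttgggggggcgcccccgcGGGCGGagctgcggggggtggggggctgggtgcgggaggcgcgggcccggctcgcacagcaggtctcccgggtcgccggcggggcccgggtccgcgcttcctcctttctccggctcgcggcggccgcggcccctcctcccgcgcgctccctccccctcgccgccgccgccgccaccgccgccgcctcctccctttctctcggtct
Both strands were searched for the core of the antioxidant response element TGACNNNGC, the AP-1 site TGANTCA, the TATA motif TATAAA, the GC box motif GGGCGG, the CArG box by name, and the cyclic AMP response element TGACGTCA, the last added after the sequences had been seen. No 2 of these overlapped in the 4 sequences. Tubb2a and Fscn1, which moved in opposite directions, both held TGACGTCA and TATAAA. These motifs were found in 1.55% and 12.4% of all 32851 promoters, and in 2.53% and 6.51% of those of tested genes. Among the 43 promoter entries of the members they were found in 4.65% and 14%. TGACNNNGC was found in Tuba1a here, and among the other members' promoters in Tuba1c and Vav3. That is 6.98% of the 43 entries, against 10.2% of all promoters and 11.9% of those of tested genes. GGGCGG was found in Tubb2a, Tuba1a and Src, and in 72.1% of the 43 promoter entries of the 34 genes, beside 32.7% of all promoters and 55.8% of those of tested genes. A match describes these letters only.

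Among the kinases and scaffolds, 4 of 7 fell and 1 rose in KO_4OI against KO_CTR. The counts of this and the other role groups stand beside 13% of all genes higher and 14.2% lower, in groups of few genes. Src (ENSMUSG00000027646, chr2:157418444-157471862, mm10), the tyrosine kinase without which mouse osteoclasts form no ruffled border, had 75.3, 53.0 and 94.8 CPM in KO_4OI, against 276, 372 and 221 CPM in KO_CTR and 272, 283 and 297 CPM in WT_CTR. All 3 KO_4OI libraries lay below all 6 untreated libraries, which overlapped each other. Src was 3.89-fold lower in KO_4OI than in KO_CTR (log2 fold change -1.96 ± 0.22 SE, adjusted p = 2.67e-05), and its log2 fold change against WT_CTR was -1.93 ± 0.22 (adjusted p = 2.93e-05). Bcar1 (ENSMUSG00000031955, chr8:111710474-111743809), which encodes the Src substrate p130Cas, had 1.94, 1.31 and 2.65 CPM in KO_4OI, against 8.99, 14.2 and 8.13 CPM in KO_CTR and 11.3, 11.7 and 12.1 CPM in WT_CTR. It had the lowest levels in KO_4OI and no overlap with either untreated group (log2 fold change -2.41 ± 0.27 SE, adjusted p = 2.84e-05, against KO_CTR). Sh3pxd2a (ENSMUSG00000053617, chr19:47260174-47464401), which encodes the podosome scaffold Tks5, had 41.3, 24.8 and 47.9 CPM in KO_4OI, against 114, 113 and 84.9 CPM in KO_CTR and 136, 143 and 120.3 CPM in WT_CTR. Its KO_4OI libraries were again below the other 6 (log2 fold change -1.45 ± 0.22 SE, adjusted p = 2.62e-04, against KO_CTR). Pxn, the gene of the adhesion scaffold paxillin, had 209, 173 and 235 CPM in KO_4OI, against 373, 515 and 297 CPM in KO_CTR and 346, 348 and 389.8 CPM in WT_CTR, with KO_4OI below both other groups (log2 fold change -0.94 ± 0.19 SE, adjusted p = 0.00218, against KO_CTR).

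Ptk2 went the other way. This gene (ENSMUSG00000022607, chr15:73205102-73423280) encodes focal adhesion kinase and had 24.2, 21.5 and 20.0 CPM in KO_4OI, against 7.73, 5.27 and 6.03 CPM in KO_CTR and 14.4, 12.2 and 10.9 CPM in WT_CTR. Its 3 groups did not overlap, with KO_4OI highest and KO_CTR lowest. It rose 3.45-fold in KO_4OI against KO_CTR (log2 fold change 1.78 ± 0.19 SE, adjusted p = 1.61e-05) and also against WT_CTR (log2 fold change 0.81 ± 0.18, adjusted p = 0.00518). Ptk2b, the gene of the related kinase Pyk2, which is the main family member in osteoclasts, did not pass the test (log2 fold change 0.43 ± 0.20, adjusted p = 0.127), nor did Cbl, the gene of a ubiquitin ligase that binds Src (log2 fold change 0.48 ± 0.19, adjusted p = 0.0740). Ptk2b was called higher in KO_4OI, against KO_CTR and against WT_CTR, under 2 of 20 alternatives, without KO_CTR replicate 2 and with offsets for GC content. Cbl was called higher against KO_CTR under 3 of 20, without the filter on low counts, without KO_CTR replicate 1 and with GC offsets. Per kilobase of exon, the ratio of Ptk2 to Ptk2b was 0.0734 ± 0.0180 in KO_4OI, 0.0288 ± 0.00903 in KO_CTR and 0.0554 ± 0.0122 in WT_CTR, so Ptk2 was the lesser of the pair in every library. The same ratio for Src over Ptk2b was 0.643 ± 0.0589 in KO_4OI, 3.38 ± 0.108 in KO_CTR and 3.38 ± 0.361 in WT_CTR. Src thus stood above Ptk2b in each untreated library and below it in each KO_4OI library, as reads per kilobase.

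**Figure D2:**
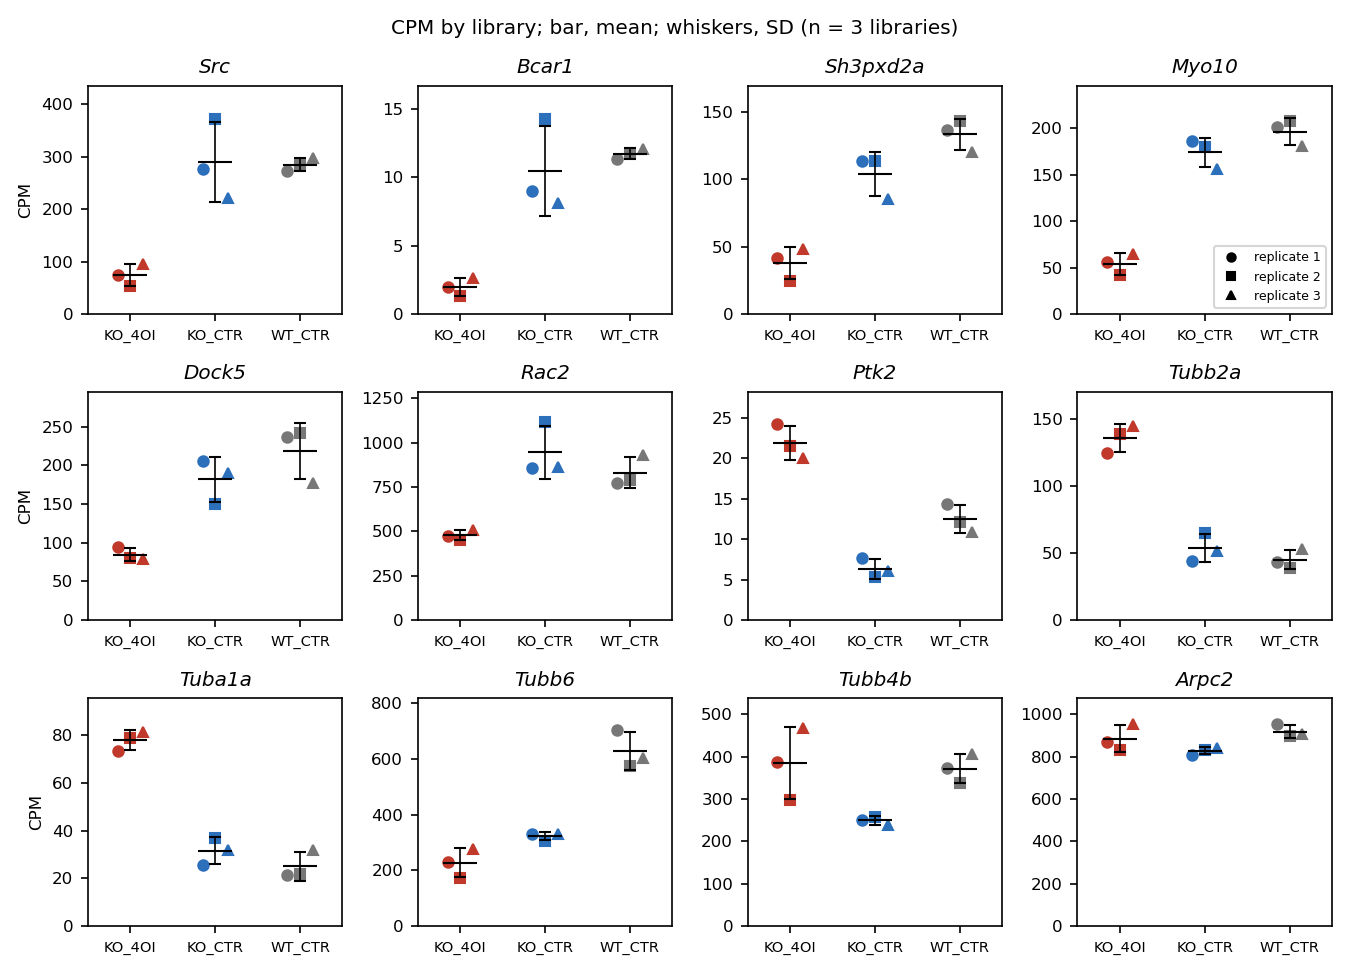
CPM (y axis, linear from 0) in each library for 12 of the 43 genes by group, with points shaped by replicate, a bar for the mean and whiskers for the SD (n = 3). Src, Bcar1, Sh3pxd2a, Myo10, Dock5 and Rac2 are lowest in all 3 KO_4OI libraries, Ptk2, Tubb2a and Tuba1a highest there, and Arpc2 ranges from 810.3 to 955 CPM.

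Bundling and motor genes held 3 members, and all 3 passed the test in KO_4OI against KO_CTR. Fscn1 (ENSMUSG00000029581, chr5:142960343-142973185) encodes fascin, which bundles actin in filopodia and is a marker of mature dendritic cells, and had 0.696, 0.672 and 0.794 CPM in KO_4OI, against 3.44, 5.44 and 3.00 CPM in KO_CTR and 2.01, 1.81 and 2.31 CPM in WT_CTR. Per kilobase it had the lowest mean of the 43 genes (0.744 RPKM over 9 libraries), and KO_4OI lay below both other groups (log2 fold change -2.45 ± 0.29 SE, adjusted p = 3.78e-05, against KO_CTR). The summed level of 10 dendritic cell markers was 292 to 326 CPM in KO_4OI, against 853 to 1482 CPM in KO_CTR and 418 to 751 CPM in WT_CTR, an order that Fscn1 shared. Of these markers 8 fell and 1 rose in KO_4OI against KO_CTR, none was at 0 in every library, and their part in the Fscn1 values was not tested. Myo10 (ENSMUSG00000022272, chr15:25622525-25813673), the filopodial motor, had 55.8, 41.6 and 64.1 CPM in KO_4OI, against 186, 179.9 and 156 CPM in KO_CTR and 201, 208 and 180.1 CPM in WT_CTR. It was 3.23-fold lower in KO_4OI than in KO_CTR with no overlap (log2 fold change -1.69 ± 0.17 SE, adjusted p = 8.65e-06). Myh9, the heavy chain of non-muscle myosin IIA and the member of this group with the most reads per kilobase, had 750.5, 631 and 866 CPM in KO_4OI, against 499, 518 and 393 CPM in KO_CTR and 576, 503 and 556 CPM in WT_CTR. All 3 KO_4OI libraries were above the 6 others. It rose in KO_4OI against KO_CTR (log2 fold change 0.67 ± 0.15 SE, adjusted p = 0.00480) and against WT_CTR (log2 fold change 0.46 ± 0.15, adjusted p = 0.0401). The second of these calls was lost without WT_CTR replicate 1 (adjusted p = 0.0761) or 2 (0.156), KO_CTR replicate 1 (0.0504), or KO_4OI replicate 1 (0.111) or 3 (0.154), and without both libraries with Xist reads (log2 fold change 0.29, adjusted p = 0.363).

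Of the 7 small GTPases and exchange factors 2 fell and 1 rose. Rac2 (ENSMUSG00000033220, chr15:78559167-78572783), the Rac gene of blood cells, had 472, 452 and 509 CPM in KO_4OI, against 857, 1114 and 862 CPM in KO_CTR and 770.2, 791 and 930.3 CPM in WT_CTR. KO_4OI libraries were below all untreated ones (log2 fold change -0.98 ± 0.14 SE, adjusted p = 1.94e-04, against KO_CTR). Rac1, its near relative, had a log2 fold change of 0.088 ± 0.12 with an adjusted p of 0.630, and the ratio of Rac2 to Rac1 in reads per kilobase was 1.75 ± 0.0158 in KO_4OI, 3.67 ± 0.379 in KO_CTR and 3.05 ± 0.296 in WT_CTR. Dock5 (ENSMUSG00000044447, chr14:67752135-67933442), a Rac exchange factor needed for the sealing zone in mouse osteoclasts, had 93.8, 80.8 and 78.4 CPM in KO_4OI, against 206, 149 and 191 CPM in KO_CTR and 236, 242 and 177 CPM in WT_CTR. Here too KO_4OI did not overlap the untreated groups (log2 fold change -1.11 ± 0.17 SE, adjusted p = 2.93e-04, against KO_CTR). Vav3, a Vav exchange factor with a known role in mouse osteoclasts, had 52.5, 48.4 and 40.4 CPM in KO_4OI, against 35.6, 19.6 and 31.8 CPM in KO_CTR and 47.9, 46.1 and 30.2 CPM in WT_CTR. Its rise in KO_4OI against KO_CTR was close to 0.05 in the test (log2 fold change 0.70 ± 0.23 SE, adjusted p = 0.0388). KO_CTR replicate 2 was its lowest library. Without that library the log2 fold change was 0.46 (adjusted p = 0.0830), and the call was also lost without KO_CTR replicate 3 (adjusted p = 0.0531), KO_4OI replicate 1 (0.136) or 2 (0.0895), or WT_CTR replicate 2 (0.0508). Vav1 had a log2 fold change of -0.078 ± 0.14, Rhoa of 0.15 ± 0.11 and Cdc42 of 0.18 ± 0.15, none past the threshold. In reads per kilobase the ratio of Vav3 to Vav1 was 0.200 ± 0.0324 in KO_4OI, 0.119 ± 0.0436 in KO_CTR and 0.188 ± 0.0577 in WT_CTR. Vav1 thus stood above Vav3 in every library. Cdc42, which had the most reads per kilobase of this group, stood at 893, 967 and 754 CPM in KO_4OI, against 755, 640.5 and 909.8 CPM in KO_CTR and 835, 834 and 698 CPM in WT_CTR, and its groups overlapped.

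Vcl and Actn1 were the 2 of 6 links from integrins to actin that fell in KO_4OI against KO_CTR. Actn1, the gene of the crosslinker alpha-actinin-1, had 190.4, 139 and 244 CPM in KO_4OI, against 312, 359 and 264 CPM in KO_CTR and 393, 359 and 387 CPM in WT_CTR (log2 fold change -0.71 ± 0.19 SE, adjusted p = 0.0124, against KO_CTR), with KO_4OI below both other groups. For Vcl, the gene of vinculin, which joins talin to actin, the log2 fold change was -0.67 ± 0.17 (adjusted p = 0.0101), and without the libraries with Xist reads it was -0.61 (adjusted p = 0.0626). The other 4 did not pass the test. They are Actn4 (log2 fold change -0.10 ± 0.15), Tln1, the gene of the integrin activator talin (-0.41 ± 0.19), Zyx, the gene of zyxin (0.48 ± 0.23), and Flna, the gene of filamin A (0.32 ± 0.14). Zyx was called higher against KO_CTR under 3 of 20 alternatives, without the filter on low counts, without KO_CTR replicate 2 and with GC offsets. Tln1 was called lower under 2, without the filter or without KO_CTR replicate 3, and against WT_CTR under 5, among them without KO_CTR replicate 2 or without KO_4OI replicate 3. Flna, the most abundant per kilobase, had 1239, 1062 and 1343 CPM in KO_4OI, against 1006, 1095 and 810.0 CPM in KO_CTR and 1052, 1021 and 1052 CPM in WT_CTR, with overlap between KO_4OI and KO_CTR. Zyx rose in KO_4OI against WT_CTR (log2 fold change 0.94 ± 0.23 SE, adjusted p = 0.00907). Without the libraries with Xist reads this log2 fold change was 0.75 (adjusted p = 0.104), and KO_CTR against WT_CTR gave 0.45 ± 0.23 (adjusted p = 0.320).

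The Arp2/3 complex, which starts new branches on actin filaments, showed no called subunit. Arpc1b, Arpc2, Arpc3, Arpc5, Actr2 and Actr3 had log2 fold changes of 0.11 ± 0.13, 0.10 ± 0.11, 0.0044 ± 0.13, 0.29 ± 0.14, 0.40 ± 0.27 and -0.10 ± 0.13 in KO_4OI against KO_CTR. By edgeR 0 of these 6 were past the threshold, 0 had an unadjusted p under 0.05 and DESeq2 called 0, and a p that misses the threshold does not show equal levels. With GC offsets Actr3 was called against KO_CTR and against WT_CTR. Arpc2 (ENSMUSG00000006304, chr1:74236084-74268209), the most abundant per kilobase at 436 ± 31.1 RPKM in KO_4OI, 407 ± 8.15 RPKM in KO_CTR and 452 ± 15.2 RPKM in WT_CTR, had 870.5, 831 and 955 CPM in KO_4OI, against 810.3, 830.4 and 843 CPM in KO_CTR and 954, 896 and 907 CPM in WT_CTR. For Arpc2 the KO_4OI libraries overlapped both other groups, and KO_CTR lay below WT_CTR without passing the test (adjusted p = 0.509). Of the activators, Cttn, the gene of the Src substrate cortactin, had 26.2, 21.1 and 32.8 CPM in KO_4OI, against 57.5, 49.8 and 50.7 CPM in KO_CTR and 73.6, 61.6 and 56.3 CPM in WT_CTR. It fell in KO_4OI, whose libraries were below the 6 others (log2 fold change -0.98 ± 0.18 SE, adjusted p = 0.00128, against KO_CTR). Was, the gene of the blood cell activator WASP, had a log2 fold change of -0.22 ± 0.17, Wasf2 of -0.38 ± 0.18 and Wipf1, whose product binds WASP, of -0.36 ± 0.15. Wipf1 fell against WT_CTR (log2 fold change -0.45 ± 0.15, adjusted p = 0.0413). That call did not hold with RLE or upper-quartile scaling (adjusted p = 0.0538 and 0.0507), nor without KO_4OI replicate 1 (0.122) or 2 (0.172), KO_CTR replicate 1 (0.0565), WT_CTR replicate 1 (0.14), 2 (0.113) or 3 (0.0756), or both libraries with Xist reads (0.0930).

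The filament turnover group holds Cfl1 and Pfn1, the most abundant of the 43 genes per kilobase, and by edgeR 0 of its 3 genes were called in KO_4OI against KO_CTR, with 0 at an unadjusted p under 0.05 and 0 called by DESeq2. Cfl1, the gene of the severing protein cofilin, had 2357, 2279 and 2680.1 CPM in KO_4OI, against 2077, 2514 and 2269 CPM in KO_CTR and 2439, 2258 and 2768 CPM in WT_CTR, and all groups overlapped (log2 fold change 0.093 ± 0.13, KO_4OI against KO_CTR). Pfn1, the gene of profilin, had a log2 fold change of -0.19 ± 0.16 and Gsn, the gene of the capping and severing protein gelsolin, of -0.22 ± 0.18. Against WT_CTR, Pfn1 was called lower in KO_4OI under 3 of 20 alternatives, without KO_4OI replicate 3, without both libraries with Xist reads and with GC offsets. In reads per kilobase the 3 genes lay between 344 RPKM (Gsn) and 845 RPKM (Cfl1) as means over 9 libraries. Actin itself, chosen after its values were seen, had 4669, 4157 and 6031 CPM in KO_4OI, against 4618, 5484 and 4352 CPM in KO_CTR and 5975, 4988 and 6223 CPM in WT_CTR for Actb (log2 fold change 0.040 ± 0.15, adjusted p = 0.875, against KO_CTR). Actg1, chosen with it, had a log2 fold change of -0.18 ± 0.15 against KO_CTR (edgeR adjusted p = 0.413). Against WT_CTR that of Actg1 was -0.43 ± 0.15 (adjusted p = 0.0547), with KO_4OI below WT_CTR without overlap.

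Tubulin genes encode the subunits of microtubules, as several alpha and beta isotypes. In KO_4OI against KO_CTR 4 of 7 rose and Tubb6 fell. Tubb2a (ENSMUSG00000058672, chr13:34074274-34078007), a beta-tubulin gene best known from neurons, had 125, 139 and 145 CPM in KO_4OI, against 44.2, 65.3 and 51.7 CPM in KO_CTR and 43.3, 38.9 and 53.2 CPM in WT_CTR. All 3 KO_4OI libraries were above the 6 others (log2 fold change 1.34 ± 0.17 SE, adjusted p = 9.10e-05, a 2.53-fold rise against KO_CTR). Tuba1a (ENSMUSG00000072235, chr15:98949837-98953703), an alpha-tubulin gene also known from neurons, had 73.2, 79.0 and 81.5 CPM in KO_4OI, against 25.7, 36.9 and 32.0 CPM in KO_CTR and 21.2, 22.0 and 32.1 CPM in WT_CTR. It showed the same order (log2 fold change 1.30 ± 0.19 SE, adjusted p = 2.32e-04, against KO_CTR). Against WT_CTR the log2 fold changes were 1.59 ± 0.18 for Tubb2a (adjusted p = 2.19e-05) and 1.63 ± 0.19 for Tuba1a (adjusted p = 3.98e-05).

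The beta-tubulin gene Tubb6 (ENSMUSG00000001473), an isotype with a known role in podosome organisation in mouse osteoclasts, had 231, 173 and 277 CPM in KO_4OI, against 332, 307 and 332 CPM in KO_CTR and 705, 575 and 604 CPM in WT_CTR. Its 3 groups did not overlap, with KO_4OI lowest and WT_CTR highest. It fell in KO_4OI against KO_CTR (log2 fold change -0.51 ± 0.16 SE, adjusted p = 0.0333) and against WT_CTR (log2 fold change -1.47 ± 0.17, adjusted p = 2.82e-05). The call against KO_CTR was lost without KO_CTR replicate 1 (adjusted p = 0.0822) or 3 (0.0685), without KO_4OI replicate 1 (0.0936) or 2 (0.13, log2 fold change -0.35), and with GC offsets (0.0815).

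Tubb4b had 387, 299 and 468 CPM in KO_4OI, against 251, 259 and 239 CPM in KO_CTR and 374, 337 and 406 CPM in WT_CTR, and the abundant alpha-tubulin gene Tuba1b had 779.7, 729 and 989 CPM in KO_4OI, against 578, 616 and 609 CPM in KO_CTR and 727, 652 and 833 CPM in WT_CTR. In both genes KO_CTR was lowest and KO_4OI overlapped WT_CTR. Both rose in KO_4OI against KO_CTR (Tubb4b log2 fold change 0.63 ± 0.16 SE, adjusted p = 0.0102, and Tuba1b log2 fold change 0.47 ± 0.14 SE, adjusted p = 0.0266) and did not pass against WT_CTR (adjusted p = 0.876 and 0.442). Without the libraries with Xist reads neither passed against KO_CTR (adjusted p = 0.0743 for Tubb4b and 0.148 for Tuba1b), and Tuba1b was also lost with upper-quartile scaling (0.0564) and without KO_CTR replicate 1 (0.0738), KO_4OI replicate 1 (0.0535) or KO_4OI replicate 3 (0.116). Tubb5 and Tuba1c did not pass against KO_CTR (log2 fold changes 0.40 ± 0.15 and 0.33 ± 0.14, edgeR adjusted p = 0.0610 and 0.0996). In both genes KO_4OI still lay above KO_CTR without overlap. Tubb5 was called higher under 3 of 20 alternatives, without the filter on low counts, without KO_4OI replicate 2 and with GC offsets. Tuba1c was called higher under 1, with GC offsets. The summed level of 12 cycling cell markers ran from 1626 to 1727 CPM in KO_4OI, against 908 to 1300 CPM in KO_CTR and 1553 to 1752 CPM in WT_CTR, the same order as Tubb4b and Tuba1b. Of these 12 markers 5 were called higher in KO_4OI against KO_CTR, beside 13% of all genes. By edgeR 11 had an unadjusted p under 0.05, beside 38.2%. Their log2 fold changes ran from 0.27 to 0.88 (median 0.54), and their part in the tubulin values was not tested.

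As shares of all beta-tubulin reads per kilobase, Tubb6 took 13.9% ± 0.888 in KO_4OI, 25.8% ± 2.11 in KO_CTR and 34.1% ± 3.00 in WT_CTR (SD, n = 3). Tubb2a took 12.9% ± 2.33 in KO_4OI, 6.45% ± 1.07 in KO_CTR and 3.69% ± 0.372 in WT_CTR. The shares of the other abundant isotypes differed less between groups, with Tubb5 at 45.0% ± 0.138 in KO_4OI, 44.0% ± 1.36 in KO_CTR and 38.4% ± 1.93 in WT_CTR, and Tubb4b at 27.5% ± 1.36 in KO_4OI, 23.2% ± 0.309 in KO_CTR and 23.5% ± 0.723 in WT_CTR. Of the alpha-tubulin reads per kilobase Tuba1a took 6.12% ± 0.786 in KO_4OI, 3.54% ± 0.528 in KO_CTR and 2.20% ± 0.329 in WT_CTR. The ratio of Tubb2a to Tubb6 was 0.941 ± 0.236 in KO_4OI, 0.253 ± 0.0618 in KO_CTR and 0.109 ± 0.0212 in WT_CTR, with no overlap between groups. The sum of 8 beta-tubulin genes was 667 ± 120 RPKM in KO_4OI, 516 ± 20.5 RPKM in KO_CTR and 758 ± 66.5 RPKM in WT_CTR. Tubulin genes are close copies of each other, and reads that match several of them may be dropped by the counting, so single isotype values are uncertain.

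**Figure D3:**
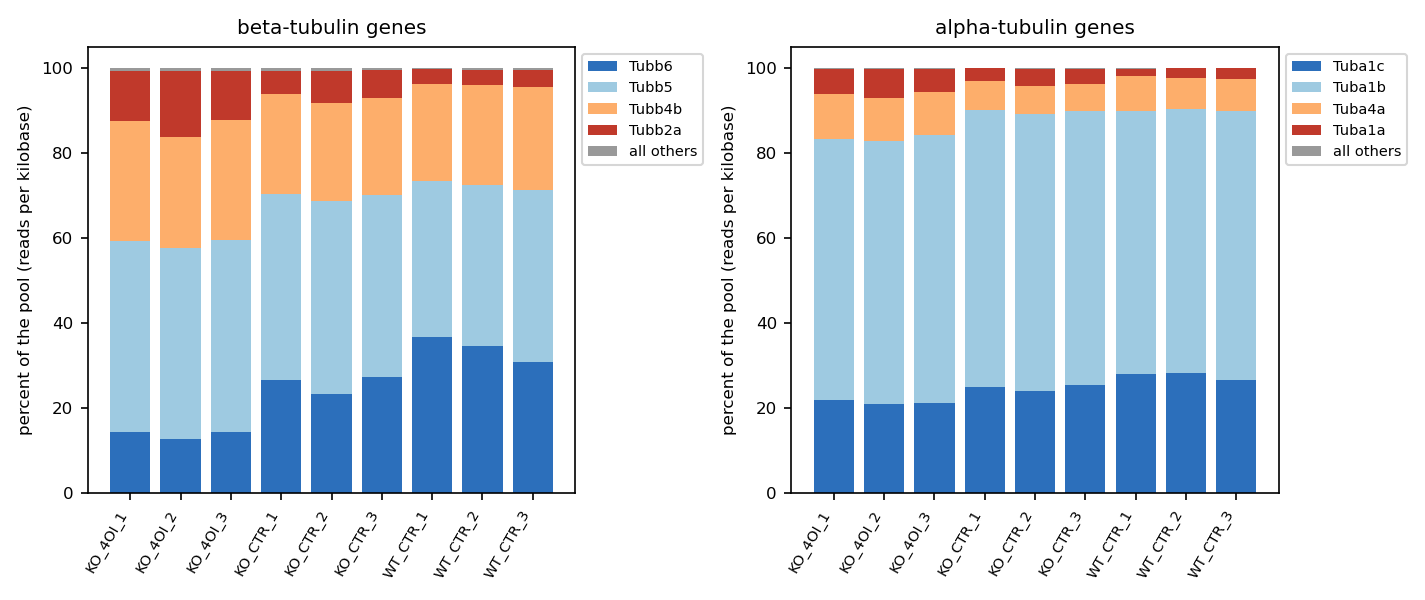
Share of each tubulin gene (y axis, percent of reads per kilobase) in the 8 beta-tubulin and 7 alpha-tubulin genes, 1 bar per library. The Tubb2a share is widest and the Tubb6 share narrowest in the 3 KO_4OI bars, and the Tuba1a share is widest there too.

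Against WT_CTR, which shares the KO_4OI libraries with the comparison above, 18 of 43 genes passed in KO_4OI, 5 higher and 13 lower, which is 41.9% beside 24.3% of all genes tested. By direction all genes gave 12.1% higher and 12.2% lower. DESeq2 called 18 as well, beside 26.9% of all genes. The median log2 fold change was -0.089 over the 43 genes. The falls were Src, Bcar1, Pxn, Sh3pxd2a, Vcl, Actn1, Wipf1, Cttn, Fscn1, Myo10, Rac2, Dock5 and Tubb6, with log2 fold changes between -2.57 (Bcar1) and -0.45 (Wipf1). The rises were Ptk2, Zyx, Myh9, Tubb2a and Tuba1a.

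Without treatment, the libraries labelled KO_CTR and WT_CTR differed in 2 of the 43 genes, both lower in KO_CTR, beside 0.519% of all genes tested. By direction 2 lower stand beside 0.0491% and 0 higher beside 0.47%. Without adjustment 7 of the 43 had a p under 0.05, beside 17.8% of all genes, and 9 had groups that did not overlap, beside 19.7%. DESeq2 called 5, beside 4.41%. Ptk2 was 1.96-fold lower in KO_CTR, at 7.73, 5.27 and 6.03 CPM against 14.4, 12.2 and 10.9 CPM in WT_CTR (log2 fold change -0.97 ± 0.19 SE, adjusted p = 0.0438). Tubb6 was 1.94-fold lower, at 332, 307 and 332 CPM in KO_CTR against 705, 575 and 604 CPM in WT_CTR (log2 fold change -0.96 ± 0.16 SE, adjusted p = 0.0285). In both genes all 3 KO_CTR libraries lay below all 3 WT_CTR libraries. Without the libraries with Xist reads the adjusted p was 0.147 for Ptk2 and 0.0677 for Tubb6. Leaving out 1 library, both calls were lost without WT_CTR replicate 1 (0.297 and 0.19 for Ptk2 and Tubb6), WT_CTR replicate 2 (0.172 and 0.12), KO_CTR replicate 1 (0.0612 and 0.0764), KO_CTR replicate 3 (0.0973 and 0.0748) or KO_4OI replicate 1 (0.0796 and 0.0568), and that of Ptk2 without KO_CTR replicate 2 (0.0583). Over the 9 fits with 1 library left out the log2 fold changes ran from -1.14 to -0.79 for Ptk2 and from -1.02 to -0.86 for Tubb6. Next to them Fscn1 had a log2 fold change of 0.95 ± 0.25 (adjusted p = 0.101), Tubb4b of -0.58 ± 0.16 (adjusted p = 0.107) and Tuba1c of -0.51 ± 0.14 (adjusted p = 0.101), and with offsets for GC content these were among 8 called members, beside 10.6% of all genes tested with those offsets. Of the 12 osteoclast markers 0 were called by edgeR in this comparison, and 3 had an unadjusted p under 0.05. Their summed level was higher in KO_CTR without overlap, at 28337 to 35054 CPM against 25168 to 26542 CPM in WT_CTR. Their median log2 fold change was 0.10. Of the 12 cycling cell markers 0 were called and 10 had an unadjusted p under 0.05, with log2 fold changes from -0.87 to -0.24 (median -0.46). The 7 tubulins had a median of -0.36, but Tubb2a (0.25 ± 0.17 SE) and Tuba1a (0.33 ± 0.19 SE) lay above 0. The part of the cycling cell markers in the tubulin values was not tested. Markers of 3 other blood cell types also had higher summed levels in KO_CTR than in WT_CTR, with no overlap between the libraries of the groups. The summed level of 12 macrophage and monocyte markers was 3684 to 4943 CPM in KO_CTR, against 2911 to 3439 CPM in WT_CTR, with 10 at an unadjusted p under 0.05 and 1 called. For the 10 dendritic cell markers, whose sums are given above, 8 had an unadjusted p under 0.05 and 1, Itgax, was called. For 8 B cell markers the sums were 100.4 to 140.2 CPM in KO_CTR, against 54.4 to 84.6 CPM in WT_CTR, with 8 at an unadjusted p under 0.05 and 0 called. None of these 3 lists had a marker at 0 in every library. The median log2 fold changes of these 3 lists were 0.59, 0.89 and 0.92. Lists of further cell types also had medians above 0, with 0 called. They were 0.86 for mast cells and basophils and 0.47 for stromal cells, each with 3 of 5 at an unadjusted p under 0.05. Erythroid cells had 0.41, endothelial cells 0.34, T and NK cells 0.33 and neutrophils 0.28. The sum of 12 stromal markers, 1 of them at 0 in every library, did not overlap either. It was 14.8 to 16.7 CPM in KO_CTR, against 8.13 to 13.9 CPM in WT_CTR. The part of all these lists in the values of the 43 genes was not tested.

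Within groups the 43 genes varied with GC content as well. Actr2, whose longest transcript has 40.3% GC, had 590.0, 297 and 689.6 CPM in replicates 1, 2 and 3 of KO_CTR. Replicate 2 was the lowest of them for Actr2 and Vav3 and the highest for Zyx and Bcar1. The called genes Src, Bcar1, Pxn and Fscn1 were high in the same library, and with offsets for GC content 26 of the 43 genes were called in KO_4OI against KO_CTR, beside 38.6% of all genes tested with those offsets.

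**Figure D4:**
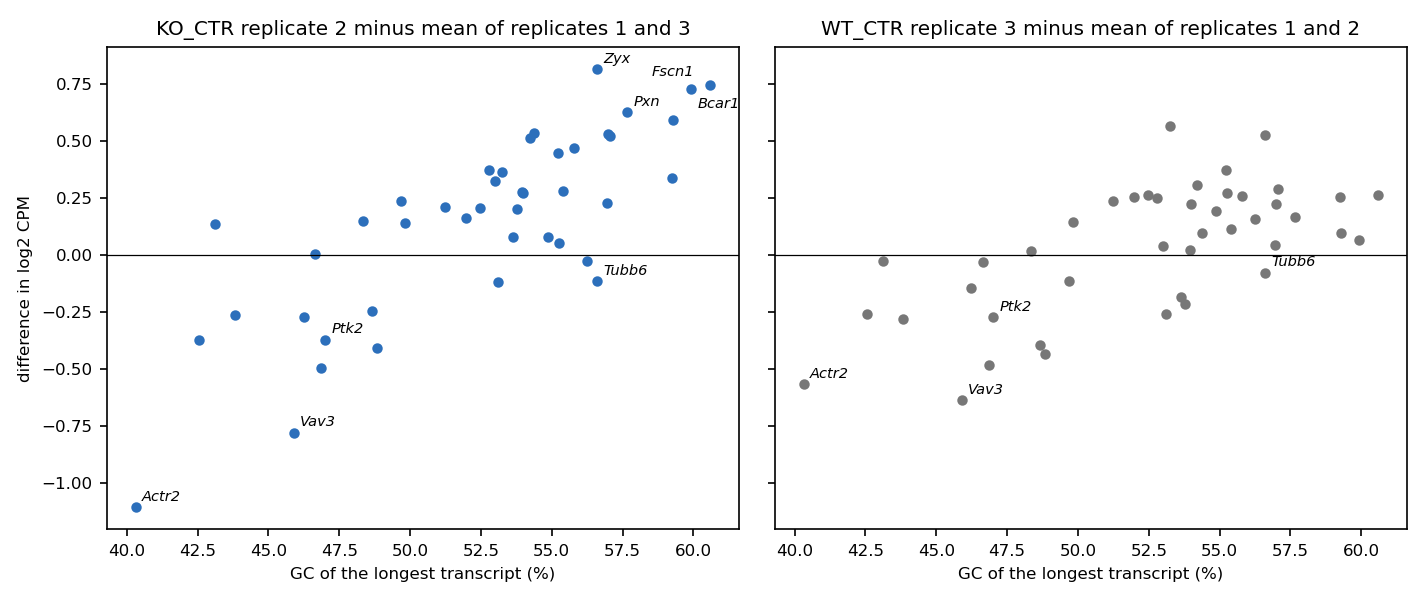
Difference in log2 CPM of 1 library from the mean of the other 2 of its group (y axis) against GC of the longest transcript in percent (x axis), for the 43 genes, in KO_CTR replicate 2 and WT_CTR replicate 3. Genes of low GC, such as Actr2 and Vav3, lie mostly below 0 in both panels, and genes of high GC mostly above.

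Beyond the 43 genes, 213 other cytoskeletal genes in 7 lists were examined, of which 203 could be tested. In KO_4OI against KO_CTR 43 of these rose and 32 fell, 36.9% of those tested, beside 27.3% of all genes. In KO_4OI against WT_CTR 36 rose and 33 fell, beside 24.3% of all genes called. In KO_CTR against WT_CTR 0 were called by edgeR, with 39 of 203 at an unadjusted p under 0.05, beside 17.8% of all genes. The counts of single lists below stand beside 13% of all genes higher and 14.2% lower in KO_4OI against KO_CTR. The myosin and contractility list held 7 higher and 6 lower of 28. Class I myosins are motors that tether actin to membranes. Myo1e averaged 113 ± 21.1 CPM in KO_4OI and 346 ± 17.4 CPM in KO_CTR (SD, n = 3 each, log2 fold change -1.61 ± 0.15 SE, adjusted p = 5.53e-06), and Myo1d, of the same class, had a log2 fold change of -1.70 ± 0.20 (adjusted p = 3.36e-05). Among 39 other podosome and adhesion genes 5 rose and 7 fell. Evl, of the Ena/VASP family of filament elongation factors, averaged 133 ± 9.15 CPM in KO_4OI and 39.6 ± 17.1 CPM in KO_CTR (log2 fold change 1.75 ± 0.25 SE, adjusted p = 1.95e-04). Nedd9, a relative of Bcar1, rose as well (log2 fold change 1.35 ± 0.21, adjusted p = 3.60e-04), whereas Pstpip1, whose product binds WASP, fell (-0.82 ± 0.13, adjusted p = 4.45e-04).

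In the list of 45 other small GTPase genes and regulators 13 rose and 8 fell. Rnd1, whose product lacks GTPase activity, fell with a log2 fold change of -2.08 ± 0.18 (adjusted p = 3.42e-06), and the Cdc42 effectors Cdc42ep2 and Cdc42ep3 moved apart, at -1.76 ± 0.20 (adjusted p = 2.58e-05) and 1.09 ± 0.15 (adjusted p = 1.68e-04). Of 34 other tubulins and microtubule genes 7 rose and 2 fell. Tuba4a averaged 272 ± 39.3 CPM in KO_4OI, 119.5 ± 2.19 CPM in KO_CTR and 178 ± 20.9 CPM in WT_CTR (log2 fold change 1.18 ± 0.15 SE, adjusted p = 5.94e-05, against KO_CTR). Tubb4a had 4.32 ± 1.65 CPM in KO_4OI, against 0.425 ± 0.0674 CPM in KO_CTR, a 10.0-fold rise at a low level (log2 fold change 3.33 ± 0.34 SE, adjusted p = 1.26e-05). The microtubule binder Map7 fell (-1.25 ± 0.20, adjusted p = 4.81e-04).

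Among 26 genes of actin isoforms, monomer binding, capping and severing 6 rose and 4 fell. Scin, the gene of the severing protein adseverin, known in osteoclasts, averaged 45.5 ± 4.17 CPM in KO_4OI and 162 ± 49.0 CPM in KO_CTR (log2 fold change -1.83 ± 0.23 SE, adjusted p = 6.72e-05). Svil and the thymosin gene Tmsb10 rose, with log2 fold changes of 0.85 ± 0.16 (adjusted p = 0.00120) and 0.73 ± 0.15 (adjusted p = 0.00276). Of 19 other Arp2/3 subunits and nucleation factors 2 rose and 3 fell, among the falls Arpin, the gene of an Arp2/3 inhibitor (-1.08 ± 0.16, adjusted p = 2.37e-04), and Abi3, of the WAVE complex (-1.45 ± 0.23, adjusted p = 3.79e-04), and among the rises its relative Abi2 (0.95 ± 0.19, adjusted p = 0.00231). The 12 formins, which build straight filaments, held 3 rises and 2 falls, with Diaph2 at 1.09 ± 0.17 (adjusted p = 4.37e-04), Diaph1 at 0.60 ± 0.17 (adjusted p = 0.0171) and Fhod1 at -0.70 ± 0.20 (adjusted p = 0.0173) on the log2 scale.

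**Figure D5:**
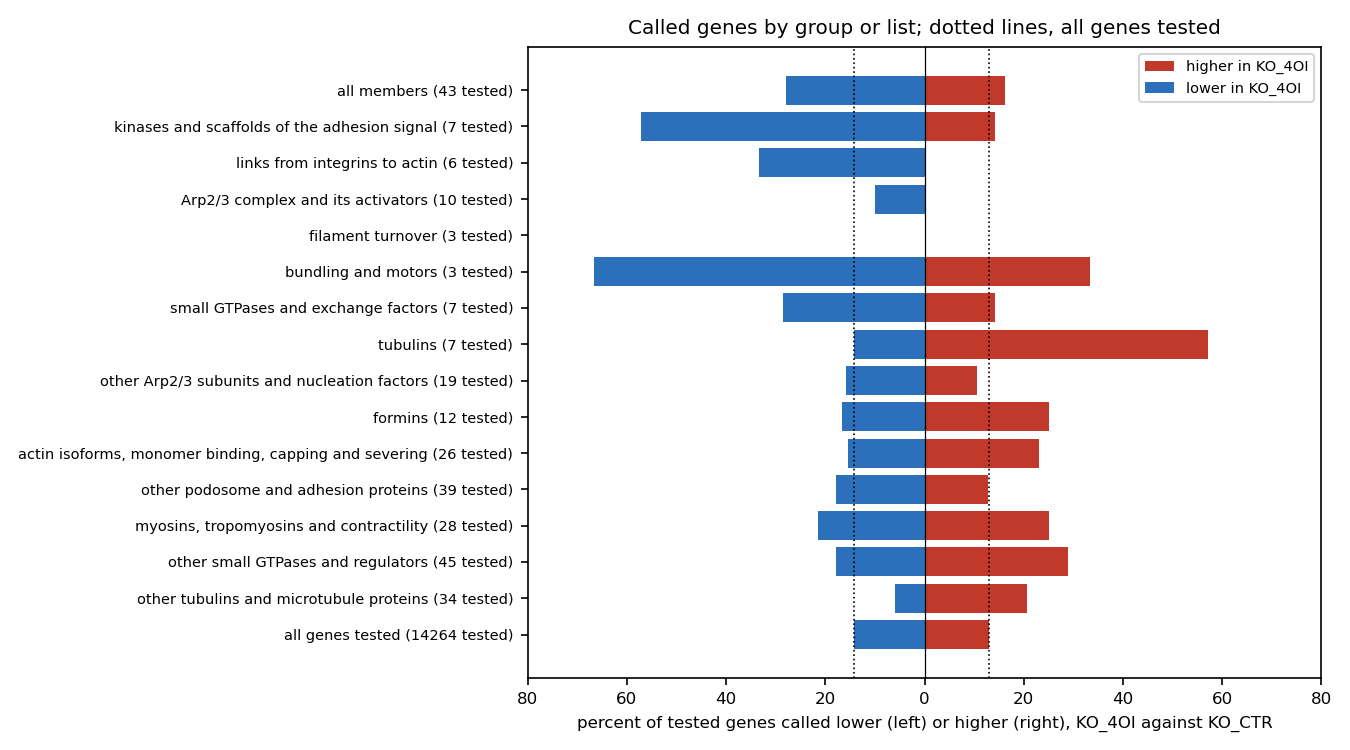
Percent of tested genes called lower (left) or higher (right) in KO_4OI against KO_CTR, for the 43 genes, their 7 role groups and the 7 lists of other cytoskeletal genes, with dotted lines at 14.2% and 13%, the shares of all genes tested. Falls exceed rises for kinases and scaffolds (4 and 1 of 7) and rises exceed falls for tubulins (4 and 1 of 7), in groups of few genes.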

How the data were processed

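RNA was sequenced from 9 libraries, 3 each of KO_4OI, KO_CTR and WT_CTR, grouped by the sample titles. The authors deposited raw read counts per Ensembl gene. The submitters' processing notes name fastp, STAR, HTSeq 0.6.1 and the build mm10. The annotation release and the strand setting are not stated there. Reads of genes that overlap a member on the opposite strand (Creb3 at Tln1, Pdap1 at Arpc1b, Daglb at Rac1, Tcta at Rhoa, Ap3m1 at Vcl, Snx32 at Cfl1) may not be told apart. Of 54532 IDs 54409 matched a symbol.

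Counts were used as deposited. Genes passing edgeR's filterByExpr (minimum count 10) numbered 14264, and all 9 libraries were fitted together with TMM scaling and group as the only factor (glmQLFit and glmQLFTest of edgeR 4.0.16 in R 4.3.3). Tests were two-sided with Benjamini-Hochberg adjustment over all genes. The SE of a log2 fold change is its size over the root of the F statistic. CPM use TMM-scaled library sizes, and RPKM divide CPM by exon length in GENCODE vM21, which also gave coordinates. Library pairs within a group differed by more than sampling noise (8.93 to 103 in chi-square per gene), and each counts as a sample. The pipeline was tested on simulated counts.

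The 43 genes and all lists were chosen with earlier results of these data known. Values per library are given for members called in KO_CTR against WT_CTR, for the called members with the largest fold (up to 10 in each direction) in KO_4OI against KO_CTR, and for the member of each role group with the most reads per kilobase. Of each other list up to 3 genes with the smallest p are named, except 1 that is not reported here. The alternatives were scaling by RLE or upper quartile, genes unfiltered or with a mean over 5 CPM, DESeq2 1.42.0, limma 3.58.1, only the 2 groups compared, a replicate block, an Xist covariate, libraries with Xist reads left out, and each library left out. Offsets for transcript GC content were added after seeing the data.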

Additional observations from a re-analysis of the deposited data

How the results depend on the processing

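The counts of called genes in KO_4OI against KO_CTR (19) and KO_4OI against WT_CTR (18) stayed within 16 to 26 and 16 to 24 of the 43 genes under every alternative run, with 16 to 20 in each when 1 library was left out. Replicate numbers were not taken to pair the libraries, because in none of the comparisons did every same-numbered pair correlate over 0.1 in its deviations from the group means. Replicates 1 correlated in all 3 comparisons (0.13 to 0.32), pairs 2 and 3 had -0.41 to -0.26 where KO_CTR took part, and KO_4OI against WT_CTR had 0.14, 0.083 and 0.23, where replicate 2 was closest to another number. With the replicate block the counts were 18 and 16, the calls not held being Vav3 (adjusted p = 0.0558) in KO_4OI against KO_CTR, and Myh9 (0.0808) and Wipf1 (0.0912) in KO_4OI against WT_CTR. DESeq2 called 30.4% and 26.9% of all genes in these comparisons. In KO_CTR against WT_CTR the count of 2 became 4 without the low-count filter, 1 at a mean of at least 5 CPM, 5 with DESeq2, 1 with only the 2 groups, 0 with the replicate block, 0 with the Xist covariate, 0 without the libraries with Xist reads, 8 with GC offsets, and 0 to 2 with 1 library left out (1 without KO_CTR replicate 2, 0 without WT_CTR replicate 1 or 2, KO_CTR replicate 1 or 3, or KO_4OI replicate 1). Over all genes the 74 calls of that comparison became 144 with upper-quartile scaling, 879 without the filter, 29 at 5 CPM, 629 with DESeq2, 6 with the replicate block, 4 with the Xist covariate, 5 without the Xist libraries, 1505 with GC offsets and 0 to 247 with 1 library left out. The cause was not tested. With GC offsets those calls split into 689 higher and 816 lower, against 67 and 7 in the fit reported. Of 778 values of single called genes under an alternative 716 kept direction and call, 62 lost the call and 0 reversed. Fscn1 was not tested at a mean of at least 5 CPM. Calls lost under some setting were those of Ptk2 and Tubb6 in KO_CTR against WT_CTR, of Vcl, Vav3, Tubb6, Tubb4b and Tuba1b in KO_4OI against KO_CTR, and of Zyx, Wipf1 and Myh9 in KO_4OI against WT_CTR. Only 3 libraries a group, with no statement that they are separate mice, and 1 cell mixture per library limit what these values show.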
